A study of Mus musculus with 13 samples.

Results

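Progranulin and 9 genes of the lysosome were followed in sorted fetal germ cells of 4 Tet1 genotypes. The set was Grn, Psap, Sort1, Tfeb, Lamp1, Lamp2, Ctsb, Ctsd, Ctsl and Hexa, 10 of the 35976 gene symbols in the count table. Grn was chosen by its read counts in KO and WT, where it was higher in KO, so that difference is given as a description with no test. The other 9 genes were added for their function, to show whether lysosomal genes were higher together with it.

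The cells were primordial germ cells of male mouse embryos at E14.5, which later give rise to sperm, isolated in every genotype by the fluorescence of an Oct4-GFP reporter. RNA came from 5000 cells per sample, and 3 libraries were analysed for each genotype. WT is the wild type, KO a Tet1 knockout, HxD a Tet1 allele known for a protein without catalytic activity, and V a Tet1 allele known for a protein that stalls at 5-hydroxymethylcytosine. TET1 oxidises 5-methylcytosine in DNA, a step towards removal of this mark. The labels do not say how the alleles were bred, which part of Tet1 the knockout lacks, or whether libraries came from separate embryos or pools, so the p-values cover only the spread among the libraries at hand, which may be technical.

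Progranulin is a secreted glycoprotein that is also delivered to lysosomes, where it is cut into granulins. Sortilin, the product of Sort1, binds progranulin at the cell surface and carries it inwards, and prosaposin, the product of Psap, offers another route by binding progranulin and travelling with it to the lysosome. Lysosomes are the acidic compartments in which cathepsins and hexosaminidases break down proteins and glycolipids, and the transcription factor TFEB is known to activate many of their genes through E-box sites. In bulk RNA, fewer cells of a type and less RNA per cell cannot be told apart.

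Because TFEB binds E-boxes and the study concerns DNA methylation, the sequence around each gene's RefSeq start was read for both. Windows of 300 bases (250 before and 50 after the RefSeq start, build GRCm38.p6) were found for 8 of the 10 genes, without Sort1 and Ctsb. The E-box core CACGTG, which reads the same on both strands, occurred in the windows of Lamp1 (4 matches), Ctsd (2) and Ctsl (1), against 7.15% of all 32851 promoter windows. The longer form TCACGTGA, which contains that core, occurred in the Ctsd window and in 0.974% of all windows. A form of 10 bases, which extends TCACGTGA on both sides, was also searched. It had 0 matches in the windows of these 8 genes, Ctsd included, and occurred in 0.326% of all windows. Grn, Psap, Tfeb, Lamp2 and Hexa had no CACGTG in their windows, which says only that these letters are absent there. The Grn window held 11 CpG dinucleotides, against a median of 7 over all windows. Ctsd had 33, Lamp1 19, and Hexa, Ctsl and Lamp2 10 each. Psap had 23 and 3 in its windows and Tfeb 22, 20 and 6, so Grn did not stand out among these genes. The following stretches, written 5′ to 3′, show E-boxes of the 3 windows that hold one, with CACGTG in capitals, and 30 bases of the Grn window with 3 CpG, with CG in capitals. All lie before the RefSeq start, from -59 to -30 for Grn. GENCODE M21, used for the gene positions below, places the start of Grn, Ctsd and Ctsl farther out, so by that annotation only the Lamp1 stretch lies before its gene. The Grn and Ctsd stretches lie in an annotated exon and the Ctsl stretch overlaps one.
Lamp1, chr8:13159091-13159160, plus strand: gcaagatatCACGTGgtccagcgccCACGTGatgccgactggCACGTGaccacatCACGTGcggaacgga
Ctsd, chr7:142387908-142387937, minus strand: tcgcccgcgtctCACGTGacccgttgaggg
Ctsl, chr13:64370739-64370768, minus strand: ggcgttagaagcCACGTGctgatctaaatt
Grn, chr11:102430448-102430477, plus strand: tggaaattgaggtgggCGggccatCGtgCG

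Library totals ran from 13584484 to 29641963 counts. Levels are given as CPM, the share of a library's counts after TMM scaling. A count of 0 allows a level of up to 0.103 to 0.220 CPM, depending on the library (3 counts, counting error only). Tet1 was at 608 ± 27.0 CPM in WT and 213 ± 11.8 CPM in KO (SD, n = 3), where each library lay below every other one. The 11 germ cell markers summed to 4973 to 5079 CPM in WT, 3841 to 4192 in KO, 3655 to 4616 in HxD and 4177 to 4417 in V. Of these markers 5 were higher and 6 lower in KO, with a median log2 fold change of -0.01. EdgeR called 1 of them lower in KO, Dazl, and 1 lower in HxD, where it called 22 and 3 of all 14702 tested genes lower. In V it called 0 of them. Dazl at 1754 against 849 CPM and Ddx4 at 862 against 532 had the largest drops in mean CPM from WT to KO. Mean Dazl was 793 CPM in HxD and 953 in V. Macrophages are rich in progranulin and lysosomal transcripts, so their markers were read in each library. The 16 macrophage markers summed to 1.86 to 5.56 CPM in WT, 0 to 1.97 in KO, 0.615 to 5.35 in HxD and 7.56 to 44.0 in V, the last value being V 2. The defining macrophage genes Adgre1 and Lyz2 had 0 counts in every library but V 2. The 10 Sertoli cell markers summed to 19.5 to 140 CPM in WT, 29.8 to 80.0 in KO, 11.7 to 49.1 in HxD and 21.7 to 433 in V, with the highest values in WT 3 and V 2.

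Grn, the progranulin gene (chromosome 11, 102430315 to 102437048, plus strand, GRCm38), had 210, 261 and 226 CPM in WT 1, 2 and 3. In KO it had 415, 406 and 459 CPM, above all 9 other libraries, as 0.762% of tested genes were. The HxD libraries had 324, 358 and 289 CPM, between the WT and KO groups and overlapping neither. The V libraries had 246, 332 and 244 CPM, a range that overlapped WT and HxD. The means were 232 ± 26.2 CPM in WT, 427 ± 28.4 in KO, 324 ± 34.7 in HxD and 274 ± 50.4 in V (SD, n = 3). The KO level was 1.84-fold the WT level (log2 fold change 0.88, SE 0.17), the value by which the gene was chosen. In HxD the log2 fold change against WT was 0.48 (SE 0.17, edgeR adjusted p = 0.438) and in V it was 0.24 (SE 0.16, edgeR adjusted p = 0.878). Without V 2, the library with the highest sums of macrophage and Sertoli markers (44.0 and 433 CPM), the V value was 0.075, and the part of those markers in it was not tested. These comparisons share the WT libraries with the one that chose Grn, and neither passed the test. At its 3′ end Grn overlaps Fam171a2 on the opposite strand by 68 bases, and Fam171a2 itself had 0 to 5.20 CPM.

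**Figure D1:**
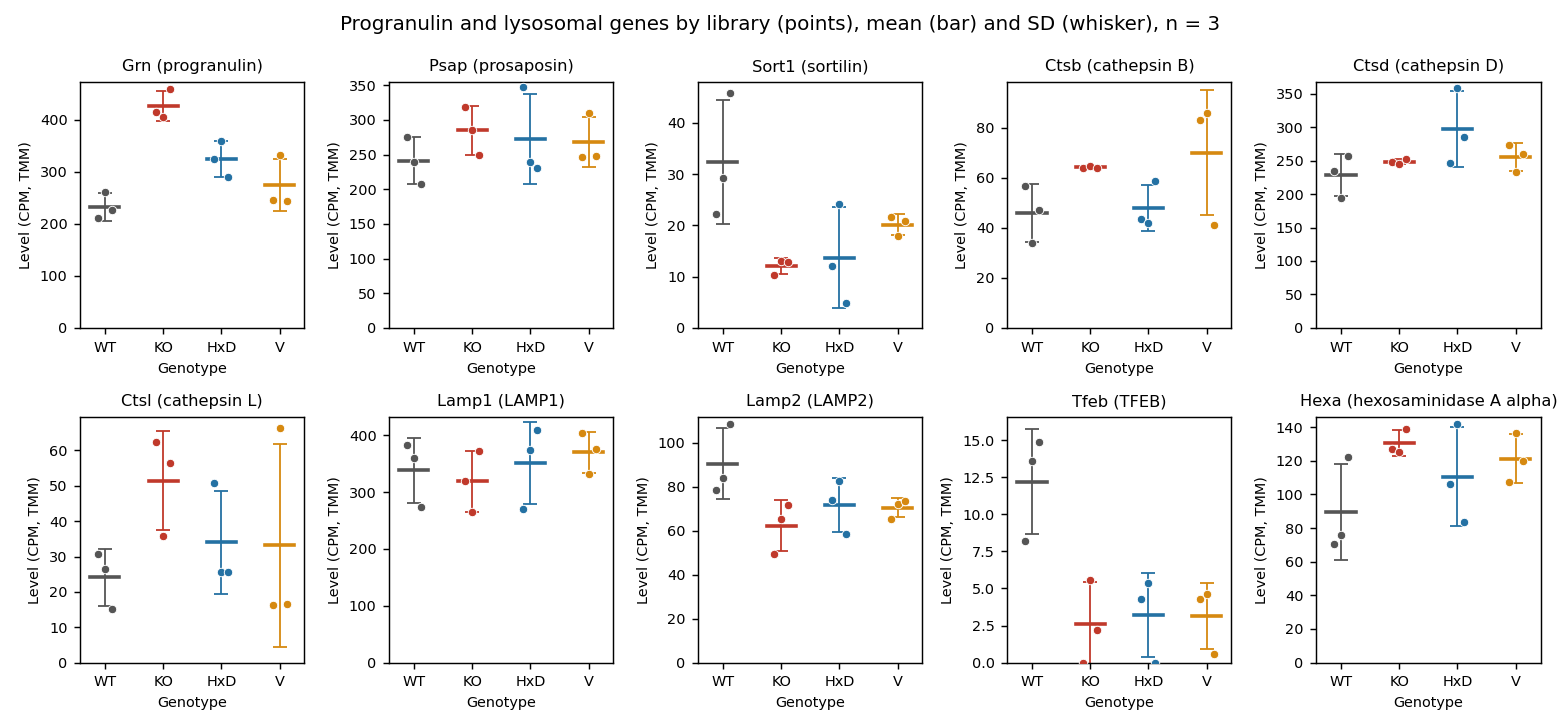
Level of each gene in every library, in CPM after TMM scaling (vertical axes, starting at 0), by genotype (horizontal axes); points are libraries, thick bars means and whiskers the SD of 3 libraries, with lower whiskers cut at 0 for Tfeb. Grn is highest in the 3 KO libraries (406 to 459 CPM), Tfeb is lower in all 9 mutant libraries than in WT, and Lamp1 overlaps between all genotypes.

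The mutant genotypes were also compared with each other, and of these comparisons only that of HxD with V shares no library with the one that chose Grn. On the log2 scale Grn was 0.24 higher in HxD than in V, with a 95% interval of -0.10 to 0.58 and overlapping libraries (edgeR adjusted p = 0.910). KO stood above HxD by 0.40 (SE 0.16) and above V by 0.64 (SE 0.17), with no overlap of the libraries in either case. The KO values in both are those by which Grn was chosen, so these differences are a description without a test, and nothing is read from Grn in the counts for them. Over all 10 genes edgeR called 0 in each of these comparisons. For KO against HxD edgeR called 0.0068% of all tested genes, and DESeq2 called 0 of the 10 and 87 of all 14702. There Grn was the 1 gene at an unadjusted p under 0.05 (4.67% of all), and Grn and Ctsb were the 2 without overlap (9.33% of all). For KO against V edgeR called 0.0204% of all, and DESeq2 called 0 of the other 9 and 61 of all 14702. Grn was again the 1 gene at that unadjusted level (4.1% of all), and Grn, above, and Sort1, below, did not overlap (10.3% of all). For HxD against V edgeR called 0% of all, and DESeq2 called 0 of the 10 and 92 of all 14702. There were 0 of the 10 genes at that unadjusted level (5.07% of all) and 0 without overlap (7.99% of all).

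The genes of the proteins that carry progranulin to the lysosome did not pass the test in any genotype. Psap (chromosome 10, 60277627 to 60302597, plus strand), which encodes the precursor of the saposins, activators of glycolipid breakdown, lies 2.502 Mb from Tet1 on the same chromosome. It had 275, 240 and 207 CPM in WT 1, 2 and 3 and 319, 286 and 249.3 in KO, with overlap of the groups. HxD had 347, 240 and 231 CPM and V 246, 310 and 248. The log2 fold changes against WT were 0.24 in KO (95% interval -0.12 to 0.61, edgeR adjusted p = 0.801), 0.18 in HxD and 0.16 in V, and the HxD value was -0.035 without HxD 1.

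Sort1 (chromosome 3, 108284082 to 108361511, plus strand), the sortilin gene, had its highest mean level in WT. WT 1, 2 and 3 had 22.2, 29.3 and 45.8 CPM. KO had 10.3, 13.1 and 12.8 CPM, all below WT. HxD had 12.1, 24.2 and 4.78 CPM, of which HxD 2 lay above the lowest WT library, and V had 21.7, 17.8 and 20.9 CPM, all just below WT. In KO the log2 fold change was -1.43 (SE 0.53, edgeR adjusted p = 0.400), in HxD -1.24 (SE 0.53, edgeR adjusted p = 0.577) and in V -0.69 (SE 0.53, edgeR adjusted p = 0.927). None passed the test, and the sign was negative in each of the 19 alternative settings for all 3 comparisons.

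Tfeb (chromosome 17, 47737030 to 47792419, plus strand), which encodes the transcription factor that activates lysosomal genes, was weakly expressed. WT had 8.17, 13.6 and 14.9 CPM, from 163, 299 and 339 counts. KO had 0, 5.59 and 2.18 CPM, HxD 4.27, 5.39 and 0, and V 4.29, 4.61 and 0.587. All 9 mutant libraries therefore lay below the lowest WT library, a pattern noticed after the values were seen that 1.29% of the 14702 tested genes share. The counts of 0 were in KO 1 and HxD 3, and V 3 had 8 counts. The log2 fold changes were -2.24 in KO (SE 1.61, edgeR adjusted p = 0.783), -1.92 in HxD (SE 1.60, edgeR adjusted p = 0.809) and -1.94 in V (SE 1.60, edgeR adjusted p = 0.962), with wide errors and no call. The value in KO moved to -3.48 without KO 2.

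Neither of the genes for the major lysosomal membrane glycoproteins passed the test in any genotype. Lamp1 (chromosome 8, 13159161 to 13175338, plus strand), whose promoter stretch with 4 E-boxes is printed above, had 382, 359 and 273 CPM in WT and 320, 265 and 372 in KO. HxD had 270, 374 and 410 CPM and V 403, 331 and 375, so all 4 groups overlapped. The log2 fold change in KO was -0.08 (95% interval -0.45 to 0.28, edgeR adjusted p = 1). HxD and V had 0.05 and 0.13. The sign turned without WT 1 or KO 2 in KO, without WT 3 or HxD 3 in HxD, and without WT 3 in V.

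Lamp2 (chromosome X, 38401357 to 38456454, minus strand), which also serves the uptake of proteins and autophagosomes by lysosomes, had 78.5, 83.9 and 109 CPM in WT. KO had 49.3, 65.5 and 71.8 CPM, all below WT, and V had 65.5, 72.3 and 73.3, also all below. HxD had 73.8, 82.5 and 58.6 CPM, overlapping WT. The log2 fold changes were -0.54 in KO (SE 0.24, edgeR adjusted p = 0.543), -0.33 in HxD (SE 0.24, edgeR adjusted p = 0.724) and -0.36 in V (SE 0.24, edgeR adjusted p = 0.867), with no call and a negative sign in each of the 19 alternative settings.

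The 3 cathepsins, proteases of the lysosome, differed in how closely they followed Grn. Ctsl (chromosome 13, 64359337 to 64370890, minus strand), a cysteine protease, had 30.8, 26.4 and 15.1 CPM in WT and 62.3, 35.7 and 56.4 in KO, without overlap. HxD had 50.9, 25.7 and 25.6 CPM and V 16.4, 66.3 and 16.7, so in each of these genotypes 1 library was high and the others lay within the WT range. The log2 fold change was 1.10 in KO (SE 0.45, edgeR adjusted p = 0.485), 0.50 in HxD (SE 0.44, edgeR adjusted p = 0.839) and 0.46 in V (SE 0.44, edgeR adjusted p = 1). V 2, the library with the high Ctsl value, also had the highest sums of macrophage markers (44.0 CPM) and Sertoli markers (433 CPM), and their part in the V value was not tested. Without V 2 the V value was -0.55.

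Ctsb (chromosome 14, 63122462 to 63145923, plus strand), another cysteine protease, had 56.9, 33.8 and 47.0 CPM in WT and 63.9, 64.7 and 64.0 in KO, a narrow group above all of WT. HxD had 43.6, 42.0 and 58.7 CPM, and V had 83.2, 85.9 and 41.2, of which V 3 lay within the WT range. The log2 fold changes were 0.48 in KO (SE 0.29, edgeR adjusted p = 0.668), 0.07 in HxD (SE 0.29, edgeR adjusted p = 1) and 0.61 in V (SE 0.29, edgeR adjusted p = 0.820). The HxD value changed sign without WT 2 or HxD 3. Ctsb overlaps Fdft1 on the opposite strand by 774 bases, and Fdft1 had 140 to 184 CPM, so reads in the shared stretch cannot be assigned with certainty. The same limit holds for Lamp1, which overlaps Grtp1 by 3317 bases, and Hexa, which overlaps Tmem202 by 308, both on opposite strands. Grtp1 had 0 to 28.1 CPM and Tmem202 0 to 4.06. Sort1, Ctsd and Ctsl overlap gene models with Gm symbols, also on their own strand, and the limit holds for them too. On the same strand Sort1 overlaps Gm43099 by 5241 bases. Ctsd overlaps the protein-coding model Gm49369 by 6757, and Ctsl the pseudogene Gm49230 by 395.

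Ctsd (chromosome 7, 142375911 to 142388038, minus strand), the main aspartic protease of lysosomes, had 234, 194 and 257 CPM in WT and 248.6, 245 and 252 in KO, within the WT range. HxD had 247, 359 and 285 CPM and V 273, 233 and 260. The log2 fold change was 0.12 in KO (95% interval -0.22 to 0.47, edgeR adjusted p = 0.989), 0.38 in HxD (SE 0.17, edgeR adjusted p = 0.582) and 0.16 in V (SE 0.17, edgeR adjusted p = 1). Ctsd carries the longest E-box match printed above, TCACGTGA.

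Hexa (chromosome 9, 59539540 to 59565109, plus strand), which encodes the alpha subunit of the hexosaminidase that degrades GM2 ganglioside, had 70.3, 76.0 and 122 CPM in WT and 127, 125 and 139 in KO. The KO libraries lay above WT, with WT 3 close below them. HxD had 106, 142 and 83.9 CPM and V 108, 136 and 120, both overlapping WT. V 2 was the highest V library for Hexa, as for Psap and Ctsb. It also had the highest sums of macrophage and Sertoli markers (44.0 and 433 CPM), and their part in these V values was not tested. The log2 fold changes were 0.54 in KO (SE 0.22, edgeR adjusted p = 0.491), 0.31 in HxD (SE 0.22, edgeR adjusted p = 0.737) and 0.44 in V (SE 0.22, edgeR adjusted p = 0.828).

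**Figure D2:**
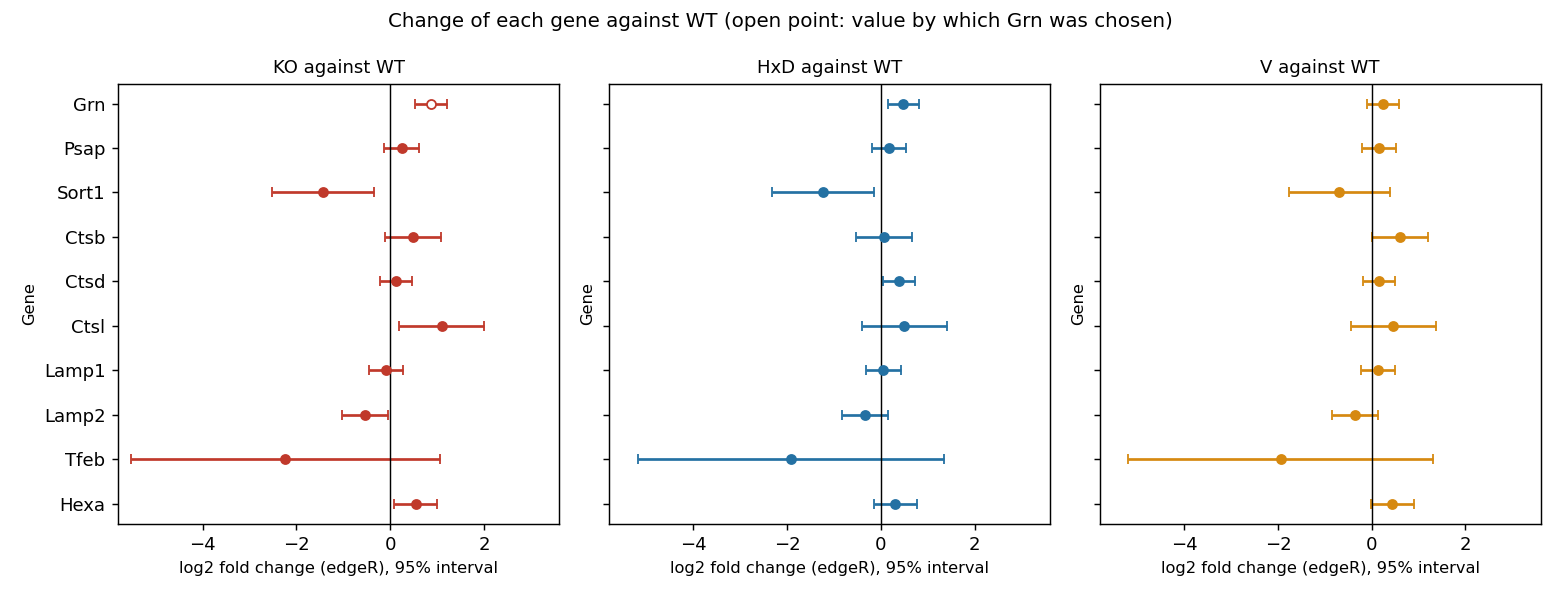
Log2 fold change of each gene (vertical axis) against WT in KO, HxD and V (horizontal axes), with 95% intervals from the edgeR fit and the Grn value in KO, by which it was chosen, as an open point. In KO the genes lie on both sides of 0, from -2.24 for Tfeb to 1.10 for Ctsl, and the intervals of Tfeb and Sort1 are the widest of the lower genes.

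All 10 genes passed the filter on low counts. In KO against WT edgeR called 1 of them higher, Grn, and 0 lower, where 0.218% of all tested genes were called, 0.068% higher and 0.15% lower. The count was 0 without WT 1, WT 3 or KO 3. Nothing can be read from that count, because this comparison chose Grn. Of the other 9, edgeR and DESeq2 each called 0, where DESeq2 called 239 of all 14702 tested genes. At an unadjusted p under 0.05, 2 were higher (Ctsl and Hexa) and 2 lower (Sort1 and Lamp2), where 3.75% of all tested genes were higher and 4.54% lower at that level. The KO and WT libraries did not overlap for 6 of the 9, with Ctsl, Ctsb and Hexa above and Sort1, Lamp2 and Tfeb below. Over all tested genes 16.3% did not overlap, 8.13% above and 8.15% below. The median log2 fold change of the 9 was 0.12, with 5 positive and 4 negative values, beside 0.00 over all tested genes, so the signs were mixed.

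In HxD against WT edgeR and DESeq2 called 0 of the 10 genes, where edgeR called 0.034% of all tested genes and DESeq2 199 of 14702. At an unadjusted p under 0.05, 2 were higher (Grn and Ctsd) and 1 lower (Sort1), against 3.42% and 4.82% of all tested genes. The HxD and WT libraries did not overlap for Grn, which was higher, and Tfeb, which was lower, against 5.26% of all genes above and 7.22% below. The median was 0.12 for the 10 genes and 0.07 for the 9 without Grn, beside -0.02 over all tested genes. In V against WT both tools called 0 of the 10, where edgeR called 0% of all genes and DESeq2 84 of 14702. At an unadjusted p under 0.05 there was 1 higher gene, Ctsb (2.85% of all), and 0 lower (3.2% of all). Sort1, Tfeb and Lamp2 lay below WT without overlap in V, against 6.06% of all genes, and 0 lay above, against 5.75%. The median was 0.16 for the 10 genes and also 0.16 for the 9 without Grn, beside 0.01 over all. For the 10 genes it was 0.056 without V 2. All 3 mutant genotypes were set against 1 group of WT libraries, so the recurrence of a direction for Sort1, Tfeb and Lamp2 is not independent.

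Between genes, levels can be compared only per length, here as CPM per kilobase of the longest principal transcript in GENCODE M21. In WT, Lamp1 had the highest level of the 10 at 152 ± 25.8 CPM per kb (SD, n = 3), followed by Ctsd with 107 ± 14.9, Grn with 99.3 ± 11.2 and Psap with 90.6 ± 12.8. The neighbours Ctsd, Grn and Psap differed by less than their spread. Hexa had 44.8 ± 14.2 CPM per kb and Lamp2 25.1 ± 4.46. Ctsb with 9.68 ± 2.44, Tfeb with 5.32 ± 1.55, Sort1 with 4.77 ± 1.78 and Ctsl with 3.91 ± 1.31 formed the low end, the last 3 within their spread of each other. In KO, Grn came to the top with 182 ± 12.1 CPM per kb, above Lamp1 with 143 ± 23.9, and Sort1 and Tfeb were lowest with 1.77 ± 0.220 and 1.13 ± 1.23. In HxD and V Grn came after Lamp1 and Ctsd, with 138 ± 14.8 and 117 ± 21.5 CPM per kb. The order depends on the length taken: with the union of all annotated exons Psap moved above Grn in WT, HxD and V, Grn and Lamp1 came close together in KO at 123 and 119 CPM per kb, and Ctsl has a second principal transcript that is 1971 rather than 6168 bases long.

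Other genes of the lysosome were read from 6 lists compiled from general knowledge, in KO against WT first. Of 43 listed acid hydrolases, the enzymes that degrade material in the lysosome, 39 were tested, with a median log2 fold change of -0.10, 16 positive and 22 negative. EdgeR and DESeq2 called 0, and at an unadjusted p under 0.05 there were 2 higher genes, Lgmn and Ctsc. Over the 6 lists together 3 of 120 tested genes (2.5%), Ctsc included, were higher and 2 (1.67%) lower at that level in KO. Of all tested genes 3.75% were higher and 4.54% lower. Lgmn, which encodes the protease legumain, had 52.4, 46.7 and 61.1 CPM in WT and 158, 71.2 and 76.2 in KO, without overlap (log2 fold change 0.93, SE 0.31, edgeR adjusted p = 0.299). Ctsc, the cathepsin C gene, had 0.050 CPM in WT 1 and 0 in the other WT libraries, and 0, 1.17 and 1.41 CPM in KO. Its HxD libraries had 0.957, 21.9 and 4.33 CPM and its V libraries 4.87, 2.08 and 6.02, and DESeq2, but not edgeR, called it higher in both. It passed the filter on low counts only through mutant libraries, so nothing is read from its calls. The counts and shares over the lists still include Ctsc and are given as values only.

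The 24 tested genes of lysosomal membrane proteins and transporters had a median of -0.01 in KO, with 0 called by edgeR or DESeq2 and 1 higher at an unadjusted p under 0.05. That gene was Spns1, a lysosomal phospholipid transporter, with 160, 157 and 159 CPM in WT and 206, 213 and 228 in KO (log2 fold change 0.44, SE 0.20, edgeR adjusted p = 0.552). Scarb2, the gene of the membrane protein LIMP-2, had 22.3, 35.6 and 18.8 CPM in WT and 28.3, 40.3 and 66.1 in KO, with overlap. The 16 subunits of the V-ATPase, the pump that acidifies lysosomes, had a median of 0.00, with 8 positive and 8 negative, 0 called by edgeR or DESeq2 and 0 at an unadjusted p under 0.05. Its genes Atp6v1f and Atp6v0b had the smallest p, at a log2 fold change of 0.52 (SE 0.27) for Atp6v1f and 0.57 (SE 0.31) for Atp6v0b, and their KO libraries lay above WT.

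Of 17 listed genes for progranulin processing and for sorting to lysosomes, 15 were tested, with a median of 0.07 in KO and 0 called by edgeR or DESeq2. At an unadjusted p under 0.05 there was 1 lower gene, Lrp1, an endocytic receptor that also takes up prosaposin. It had 29.8, 24.6 and 42.4 CPM in WT and 9.94, 12.5 and 12.4 in KO, without overlap (log2 fold change -1.47, SE 0.56, edgeR adjusted p = 0.431). Lrp1 had 4.24, 2.696 and 17.1 CPM in HxD, where DESeq2 called it lower and edgeR did not (edgeR adjusted p = 0.309), and 21.8, 37.4 and 22.5 CPM in V. Sorcs2, a relative of sortilin, had 1.10, 2.73 and 0 CPM in WT and 0 in all KO libraries, near the limit of detection.

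The 19 tested genes of the TFEB family and its regulators had a median of -0.14 in KO, with 0 called by edgeR or DESeq2 and 1 lower at an unadjusted p under 0.05. Mtor, the kinase that holds TFEB in the cytoplasm, was that gene, with 248, 235 and 201 CPM in WT and 189, 159 and 178 in KO (log2 fold change -0.38, SE 0.18, edgeR adjusted p = 0.582). Lamtor4, a subunit of the complex that recruits mTOR to lysosomes, had a log2 fold change of 0.81 (SE 0.40) with overlapping groups. The 7 tested autophagy genes known as TFEB targets had a median of 0.19, with 0 called by either tool and 0 at an unadjusted p under 0.05. Among them Vps18, of a lysosomal tethering complex, had 0.53 (SE 0.30) and Gabarapl1, an autophagosome protein, -1.16 (SE 0.70).

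In HxD the medians of the 6 lists ran from -0.07 to 0.15 and in V from -0.07 to 0.30. EdgeR called 0 of their genes in either genotype. DESeq2 called Ctsc and Lrp1 in HxD, where it called 199 of all 14702 tested genes, and Ctsc in V, where it called 84. Nothing is read from Ctsc, which passed the filter on low counts only through mutant libraries. At an unadjusted p under 0.05, 6 of the 120 genes (5%) were higher and 1 (0.833%) lower in HxD, beside 3.42% and 4.82% of all tested genes. In V, 7 (5.83%) were higher and 1 (0.833%) lower, beside 2.85% and 3.2%. The 120 genes and the list medians, in KO too, include Ctsc. They also include Ctsh and Prtn3, which had 0 CPM in WT and passed the filter only through mutant libraries. These shares and medians are therefore given as values, and no excess is read from them.

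**Figure D3:**
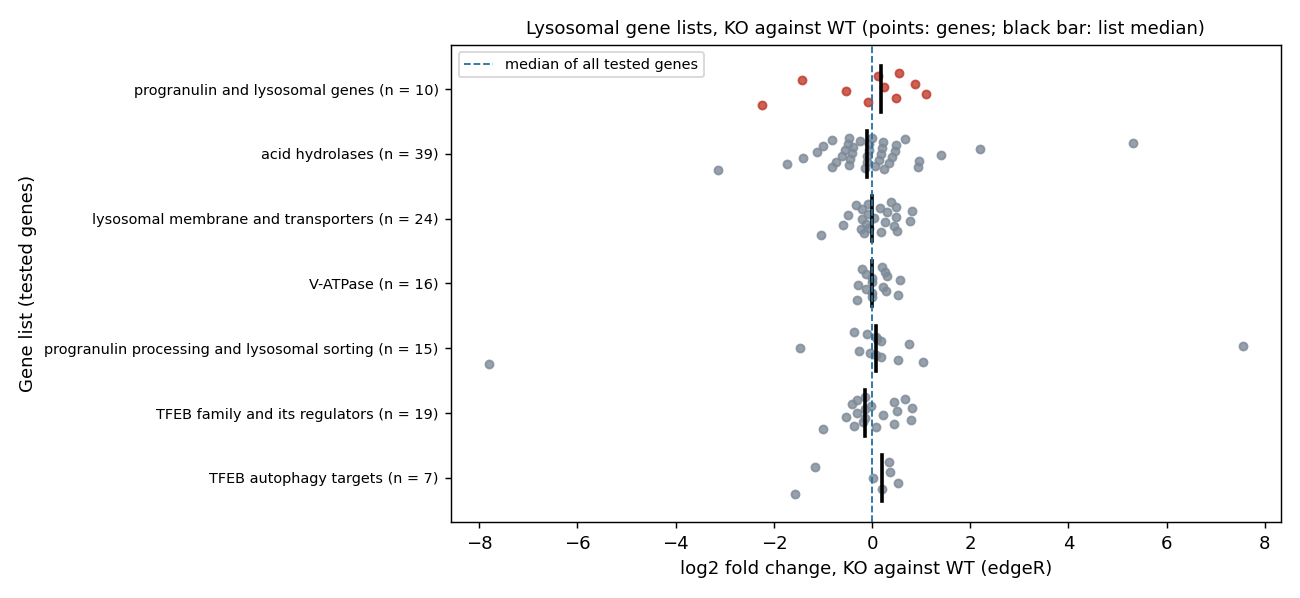
Log2 fold change in KO against WT (horizontal axis) of each tested gene (points) in 7 lists (vertical axis), with list medians as black bars and the median of all tested genes as a dashed line. The medians of the 6 wider lysosomal lists lie between -0.14 and 0.19, and the outlying points are weakly expressed genes such as Sorcs2, Prtn3 and Ctsc.

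The genes whose levels followed Grn most closely over the 12 libraries were found by the Pearson correlation of log2(CPM + 1) among named genes, given as a description. The libraries share their scaling, and Grn separates KO from the rest, so the correlations reflect that separation too. Tmeff1 (r = 0.94), Slc25a39 (0.94), Rwdd4a (0.92), Dnm2 (0.92) and B3gnt2 (0.91) had the highest values, and none of the other 9 lysosomal genes was among them. Of those 9, Ctsl had the highest correlation with Grn (0.73, rank 179 of 12826 named genes), followed by Hexa (0.63, rank 480), Psap (0.42), Ctsb (0.26) and Ctsd (0.16). It was negative for Lamp1 (-0.24), Tfeb (-0.36), Lamp2 (-0.49) and Sort1 (-0.51). Dnm2, which encodes the dynamin that pinches off endocytic vesicles, had 164 CPM in WT, 261 in KO, 233 in HxD and 195 in V on average. Slc25a39, the gene of a mitochondrial glutathione carrier, lies next to Grn on chromosome 11 (102402985 to 102407946, minus strand), 22.4 kb away. It had 270, 320 and 307 CPM in WT and 377, 378 and 390 in KO, without overlap, in the libraries over which it was picked for its likeness to Grn. Its HxD libraries had 336, 362 and 350 CPM and its V libraries 329, 351 and 313. The log2 fold change in KO was 0.35 (SE 0.15), given without a test.

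**Figure D4:**
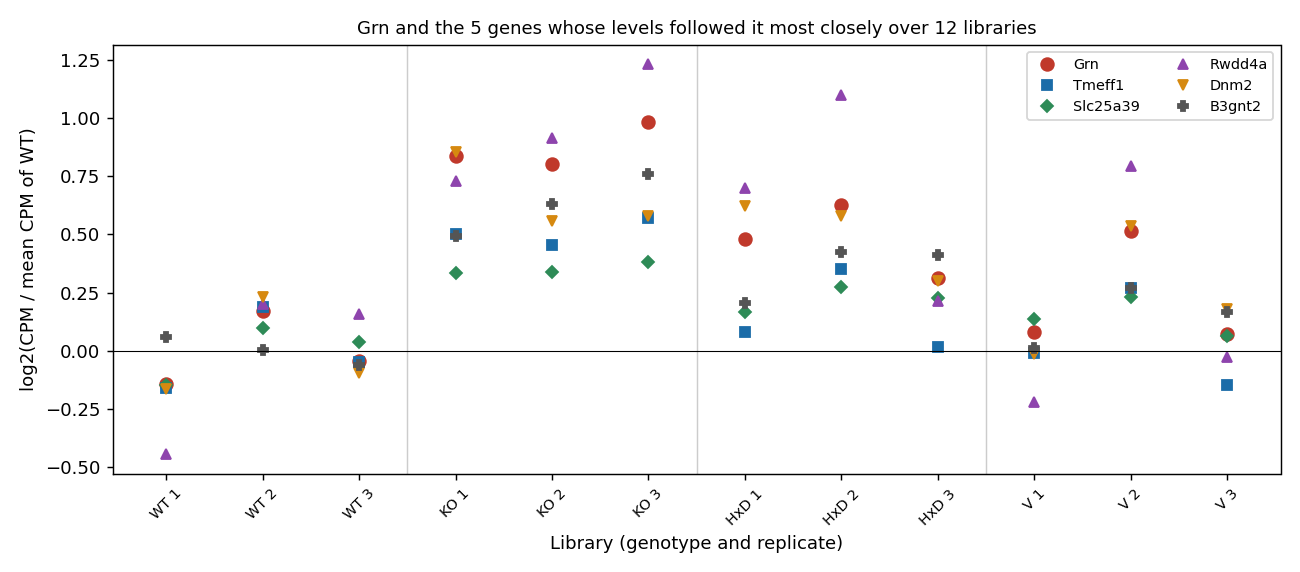
Level of Grn and of the 5 genes that followed it most closely, as log2 of CPM over the mean CPM of WT (vertical axis), in each of the 12 libraries (horizontal axis). The 3 KO libraries are highest for Grn, V 2 stands above the other V libraries, and Slc25a39 spans a narrower range than Grn (270 to 390 CPM).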

How the data were processed

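The deposited values are raw counts for each gene symbol, as whole numbers. The submitters' processing notes list featureCounts 2.0.3, STAR 2.7.10b, Trim Galore 0.6.7, SAMtools 1.9 and FastQC, and name builds GRCm39 and mm10 without a role. The annotation and the strand setting were not given in the sources used here. The 12 columns named for a sample were used; 1 column names no sample, and 1 further WT sample was not analysed here. Genes passing edgeR's default filter (14702) were fitted in R 4.3.3 with edgeR 4.0.16 (TMM, quasi-likelihood F-test, genotype as the only term, all 12 libraries), with two-sided p-values adjusted by Benjamini-Hochberg over every tested gene and a threshold of 0.05. Alternatives were DESeq2 1.42.0, RLE scaling, other filters, a replicate block, fits of 2 genotypes and fits leaving out libraries. The code was tested on simulated data. Coordinates and lengths come from GENCODE M21 (GRCm38), and promoters from RefSeq; the count table holds no coordinates. The 10 genes and all lists were chosen with earlier results of these data known. Named genes are Tet1, the 10 genes, called members of each lysosomal list or the 2 with the smallest p in KO against WT, and the 5 genes most like Grn. All 12 libraries with 13584484 to 29641963 counts were kept.

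Marker lists for Leydig, interstitial, endothelial and erythroid cells were also summed: over all libraries these ranged from 0 to 28.6, 1.81 to 34.6, 121 to 280 and 0 to 17.8 CPM. The endothelial sum was nearly all Pecam1, with 119 to 273 CPM, while Cdh5, Kdr and Tek had 0 to 7.71 CPM and Emcn 0 in every library.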

Additional observations from a re-analysis of the deposited data

How the results depend on the processing

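For KO against WT the number of the 10 genes called was 1 (Grn) and ranged from 0 to 1 when single libraries were left out, being 0 without WT 1, WT 3 or KO 3, and 0 in the fit leaving out both WT 3 and V 3. The Grn log2 fold change stayed between 0.81 and 0.97 in the 19 alternative settings. For KO against V, DESeq2 called 1 gene and edgeR 0; it was Grn, whose KO values chose it, so nothing is read from that count. With the replicate number as a block the count for KO against WT was 1 and for the other comparisons 0; over all genes the block moved the KO calls from 32 to 104, and 2 of 12 libraries correlated best with their own number. Same-numbered libraries did not deviate together (r from -0.075 to 0.095), so the numbers were not taken as pairs. Over all genes KO against WT had 239 calls by DESeq2, 148 without the filter, 15 with the stricter one, 12 with these genotypes alone, 11 without WT 3 and V 3, and 15 to 127 with single libraries left out. HxD against WT had 5 by edgeR, 199 by DESeq2, 67 without the filter, 45 with the block, 1 with the stricter filter, 2 with 2 genotypes or without WT 3 and V 3, and 1 to 47 with single libraries left out. V against WT had 0, 84 by DESeq2, 32 without the filter, 8 with the block and 0 to 10 with single libraries left out. The cause was not tested.

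In the fit leaving out both WT 3 and V 3, Lamp1 turned to -0.080 in HxD and -0.014 in V. Leaving out single libraries gave Lamp1 ranges of -0.22 to 0.031 in KO, -0.080 to 0.21 in HxD and -0.0047 to 0.23 in V, Ctsb -0.11 to 0.25 in HxD, Psap -0.035 to 0.30 in HxD and Ctsl -0.55 to 0.80 in V. The median over the 10 genes for KO against HxD, -0.04, ranged from -0.046 to 0.30, the highest without HxD 2. Of the levels, the Ctsb mean in KO (64.2 CPM) was 64.9 without TMM, more than its small SD. Low counts limit Tfeb, Sorcs2 and Ctsc.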

Other observations

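The other neighbours of Grn on chromosome 11 were read after Slc25a39 was found among the genes most like it. Rundc3a (102393403 to 102402555), on the far side of Slc25a39, had 17.9, 19.6 and 29.2 CPM in WT and 24.2, 20.8 and 19.4 in KO (log2 fold change -0.05, SE 0.47, edgeR adjusted p = 1). Gpatch8 (102475915 to 102556392), on the other side of Grn, had 172, 189 and 147 CPM in WT and 188, 160 and 126 in KO (log2 fold change -0.10, SE 0.21, edgeR adjusted p = 1). Itga2b (102453297 to 102470122), a platelet integrin gene, had 0 to 7.23 CPM over the 12 libraries. The KO and WT libraries of Rundc3a, Gpatch8 and Itga2b overlapped.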
